A study of Homo sapiens with 6 samples.

Results

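The glycolysis and hypoxia-response genes comprise 37 genes chosen by symbol, out of the 63677 genes in the count table of an RNA-Seq experiment. They were found through their Ensembl identifiers on the primary chromosomes, and the rule itself uses no measured value. The members and the further gene lists used below were, however, chosen with earlier results of these data known. Their shares are set beside those of all genes as a description only. The group holds 17 glycolytic enzymes, 4 sugar and lactate transporters, 4 kinases that set the glycolytic flux, HIF1A and 11 further target genes of the hypoxia-inducible factors (HIFs). RNA came from RPMI8226, an established human multiple myeloma line given as wild type, which received either GST-PTR1 or GST at 100 nM for 6 hr. GST-PTR1 is a recombinant protein that joins PTR1, a domain of the extracellular matrix protein HAPLN1, to glutathione-S-transferase (GST), and the control cells received the fusion partner alone. Each treatment had 3 biological replicates, so the data describe a single cell line at a single time and dose. The question asked here is whether GST-PTR1 changed the RNA of the glycolytic enzymes and of the other HIF targets, and whether both moved alike.

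Glycolysis splits glucose into pyruvate in the cytosol, and lactate dehydrogenase turns pyruvate into lactate, which leaves the cell through monocarboxylate transporters. HIFs are pairs of an oxygen-labile alpha subunit (HIF-1 alpha, encoded by HIF1A, or HIF-2 alpha, encoded by EPAS1) and a stable beta subunit. With oxygen, prolyl hydroxylases mark the alpha subunit for destruction through VHL, so HIF activity is set largely at the level of the protein, which RNA-Seq does not measure. At low oxygen HIFs bind short DNA elements and raise the transcription of many glycolytic genes and of genes for blood vessel growth, pH control and mitophagy. Plasma cells use much glucose, in part to glycosylate the antibody they secrete.

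The libraries held 15202503 to 23453473 counts with GST and 22874133 to 44688737 with GST-PTR1. They are named here by their total within a treatment, and values per library follow the order of rising total. Levels are given as CPM, the counts of a gene scaled to a common library size with TMM factors, and different genes are compared only as RPKM, which also divides by exon length. Of the 7 plasma cell markers all 7 were above 3 counts, at a sum of 1220.1 to 1401 CPM with GST and 1271 to 1283 CPM with GST-PTR1, while none of the 3 T cell markers passed that limit and 2 of 3 stromal markers were at 0. In at least 1 library 2 of 3 B cell, 2 of 3 monocyte, 1 of 3 stromal and 1 of 3 erythroid markers passed it. Their sums reached at most 2.56, 1.32, 0.48 and 2.92 CPM in a library. SDC1, TNFRSF17 and XBP1 were lower and PRDM1, SLAMF7 and IRF4 higher with GST-PTR1, and any part of these shifts in the results below was not tested. Within each treatment the library of lowest total stood apart from the other 2 for most HIF targets, and values without it are given where they change a call or a median. These libraries also carry the column numbers 3 (GST) and 2 (GST-PTR1), which the treatments do not share, while the other 4 libraries carry the numbers 4 and 5 in both. What the number stands for is not stated, and its part in the results was not tested beyond the fits of those 4 libraries. Fewer cells of a state and less RNA per cell cannot be told apart in such bulk samples.

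The promoters of 5 genes on which the results turn are printed to show what the HIF elements look like in genes that edgeR called higher, called lower or left uncalled. Each is the 250 bases before the start listed first for the gene in RefSeq on GRCh38.p14, on the strand of the gene, with capitals on every HIF core element (ACGTG or GCGTG, or their reverse complements). HIF1A lies at chr14:61695263-61695512 (plus strand), HK2 at chr2:74833877-74834126 (plus), BNIP3 at chr10:131981924-131982173 (minus), ENO2 at chr12:6914330-6914579 (plus) and LDHA at chr11:18394313-18394562 (plus).
HIF1A: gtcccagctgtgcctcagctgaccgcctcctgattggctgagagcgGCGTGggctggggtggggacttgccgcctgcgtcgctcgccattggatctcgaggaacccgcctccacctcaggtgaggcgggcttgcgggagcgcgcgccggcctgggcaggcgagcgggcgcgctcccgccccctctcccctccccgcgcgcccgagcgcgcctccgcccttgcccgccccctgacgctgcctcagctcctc
HK2: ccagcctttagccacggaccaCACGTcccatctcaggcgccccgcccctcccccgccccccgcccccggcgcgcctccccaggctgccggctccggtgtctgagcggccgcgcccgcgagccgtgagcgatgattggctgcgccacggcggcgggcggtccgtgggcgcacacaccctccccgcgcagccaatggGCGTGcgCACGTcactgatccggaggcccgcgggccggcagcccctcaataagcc
BNIP3: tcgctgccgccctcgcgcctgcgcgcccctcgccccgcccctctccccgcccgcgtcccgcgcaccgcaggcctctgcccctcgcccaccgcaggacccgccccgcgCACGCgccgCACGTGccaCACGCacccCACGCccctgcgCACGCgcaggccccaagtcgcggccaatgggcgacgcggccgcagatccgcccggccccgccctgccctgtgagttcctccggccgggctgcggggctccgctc
ENO2: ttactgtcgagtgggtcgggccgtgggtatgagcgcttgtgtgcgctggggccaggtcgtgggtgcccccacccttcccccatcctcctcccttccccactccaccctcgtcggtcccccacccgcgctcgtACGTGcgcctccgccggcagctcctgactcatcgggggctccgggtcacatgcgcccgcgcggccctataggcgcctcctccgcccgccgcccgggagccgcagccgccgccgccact
LDHA: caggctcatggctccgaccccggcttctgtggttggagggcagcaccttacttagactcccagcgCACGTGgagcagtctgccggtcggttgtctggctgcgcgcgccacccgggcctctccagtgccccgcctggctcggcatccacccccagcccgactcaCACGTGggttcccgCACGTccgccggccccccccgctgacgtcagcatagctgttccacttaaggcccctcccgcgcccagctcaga
The palindrome CACGTG, which is also the E-box bound by MYC and related factors, counts as a match on each strand. Counted so, the HIF1A promoter held 1 match, HK2 3, BNIP3 6, ENO2 1 and LDHA 5. The set of RefSeq promoters used here covered 32 of the 37 genes, all except SLC2A3, SLC16A1, BNIP3L, NDRG1 and VEGFA. A core element stood in 21 of these 32 (65.6%), in 10 of 17 glycolytic enzymes (58.8%) and in 7 of 8 HIF targets outside glycolysis (87.5%), against 43.1% of the 27305 promoters of all genes. Many members were listed because they are known HIF targets, so a share above that of all promoters is no result about them. The NF-κB motif, on either strand, matched 3 of the 32 (PFKM, ENO1 and SLC2A1), or 9.38%, against 9.57% of all promoters. These matches describe letters in a window, not bound sites.

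Few of these genes passed the test between treatments. HIF1A, HK2, SLC16A1 and BNIP3 rose, NDRG1 and ENO2 fell, and 30 of the 36 genes tested passed the test in neither direction. Calls came from edgeR's quasi-likelihood test, with p adjusted after Benjamini and Hochberg over the 16926 genes tested and a threshold of 0.05. It called 20.6% of all genes, 9.15% higher and 11.4% lower, and 16.7% of the 36 members tested, so the members' share was near the background. A change of at least 2-fold remained for HIF1A, the only member so far up (3.68% of all genes), and for NDRG1, the only one so far down (3.85% of all genes). In 15 members all GST-PTR1 values exceeded all GST values, which held for 19.2% of all genes, and in 2 members they all lay below, which held for 21.2%. The HK1 gene was left untested because its counts were too low. The scaling bears on small changes here. When library totals replaced the TMM factors, the median of all genes tested shifted by -0.20 on the log2 scale, the members' median went from 0.20 to 0.01, and 2 members were called higher and 2 lower, against 5.48% and 22.4% of all genes.

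**Figure D1:**
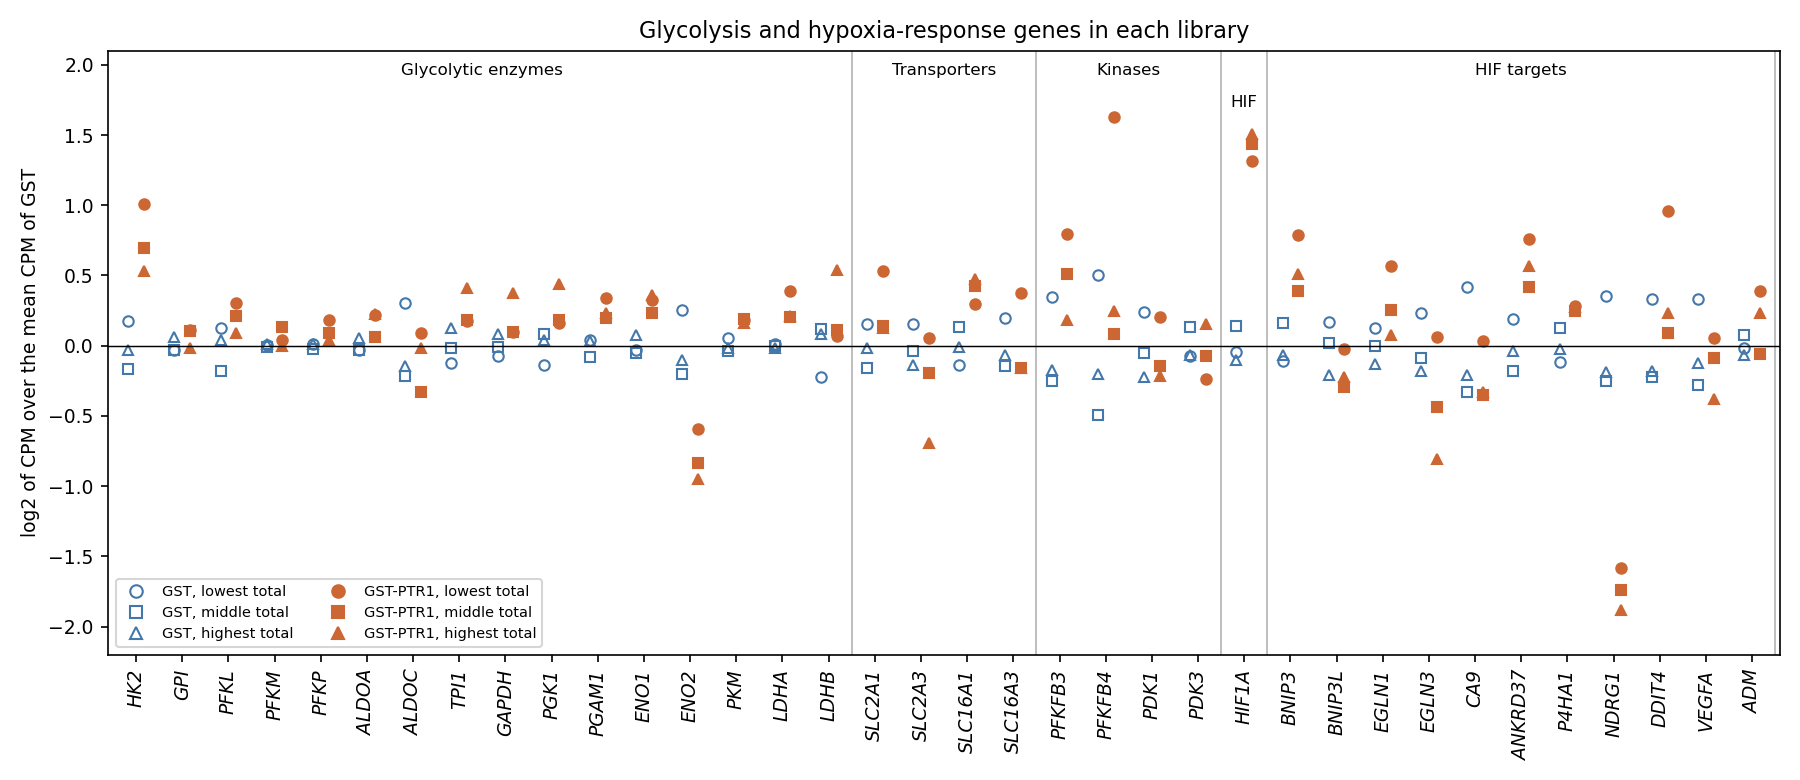
Each point is a library, plotted as log2 of its CPM over the mean CPM of the 3 GST libraries for that gene (vertical axis), for the 36 tested genes grouped by role. The 3 GST-PTR1 libraries of HIF1A sit together far above the GST libraries and those of NDRG1 far below, whereas most glycolytic enzymes stay within 0.5 of the GST mean.

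HIF1A, the oxygen-regulated alpha subunit of HIF-1, showed the largest increase of the group. Its gene ENSG00000100644 is on chromosome 14 of GRCh37 from 62162231 to 62214976. The GST libraries had 49.6, 56.4 and 47.7 CPM and the GST-PTR1 libraries 127, 138 and 145 CPM. The treatments were far apart, and the 3 GST-PTR1 libraries were close to each other. The mean went from 51.2 ± 4.57 to 137 ± 9.19 CPM (SD, n = 3 each), a 2.67-fold rise. On the log2 scale this was 1.42 with a standard error (SE) of 0.11 (edgeR adjusted p = 4.6e-06). With library totals the log2 fold change was 1.22. HIF1A shares 2.87% of its exon bases with an overlapping gene of the same strand, and reads on those bases were left out. Its antisense genes HIF1A-AS1 and HIF1A-AS3 had at most 5 and 1 counts in any library and were not tested.

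EPAS1, the gene of the HIF-2 alpha subunit, moved the other way. It is no member of the group and belongs to a list of genes that control HIF. Its libraries had 54.7, 46.0 and 44.8 CPM with GST and 29, 34.3 and 31.8 CPM with GST-PTR1, with no overlap. The log2 fold change was -0.61 (edgeR adjusted p = 0.00466). Within a library the ratio of HIF1A RPKM to EPAS1 RPKM does not depend on scaling by depth. This ratio was 1.29, 1.74 and 1.51 with GST and 6.22, 5.72 and 6.48 with GST-PTR1. HIF1A thus made up 59.9 ± 3.61% of the RPKM of both alpha subunits with GST and 86.0 ± 0.775% with GST-PTR1 (SD, n = 3 each), without overlap. The smallest p that an exact permutation test can give for 3 libraries against 3 is 0.1.

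Of the 17 genes on the list that controls HIF 14 were tested, 1 rose (7.14%) and 2 fell (14.3%), against 9.15% and 11.4% of all genes, with a median log2 fold change of 0.06 against 0.01 for all genes tested. With library totals 1 was called higher and 3 lower, against 5.48% and 22.4% of all genes. The median was then -0.13, against -0.19 for all genes. SIAH2, an E3 ubiquitin ligase that targets prolyl hydroxylases, rose from 99.2, 96.1 and 106 CPM to 196, 215 and 232 CPM (log2 fold change 1.10, edgeR adjusted p = 3.09e-05). CITED2, which competes with HIF-1 alpha for the coactivators CBP and p300, fell from 99.2, 78.8 and 83.0 CPM to 68.4, 65.9 and 60.6 CPM (log2 fold change -0.42, adjusted p = 0.0235). In each of these genes the treatments did not overlap.

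**Figure D2:**
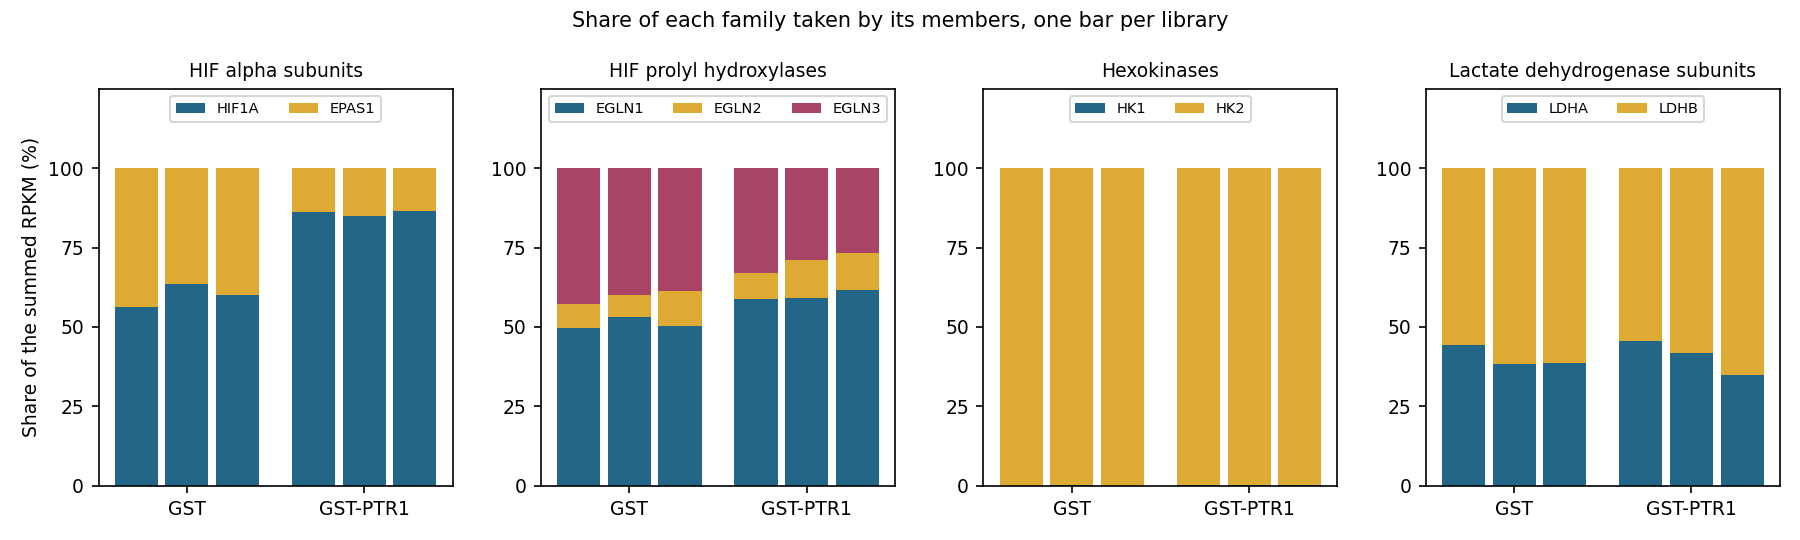
Each bar is a library, in order of rising total within a treatment, and shows the percent of the summed RPKM of a gene family taken by each of its genes. HIF1A goes from 59.9% to 86.0% of the alpha subunits and EGLN3 from 40.4% to 29.5% of the prolyl hydroxylases, while HK2 makes up nearly all hexokinase RNA and LDHA about 40% of lactate dehydrogenase RNA with either treatment.

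Among the glycolytic enzymes HK2 rose, ENO2 fell and 14 of the 16 tested passed in neither direction. The called share was 6.25% in each direction, against 9.15% higher and 11.4% lower of all genes. The enzymes' median log2 fold change was 0.20 and 14 of 16 values were positive, but with library totals the median was 0.00 and the signs were 8 positive and 8 negative. In 10 of the 16 genes all GST-PTR1 values exceeded all GST values, which held for 19.2% of all genes. The differences are thus small and most of them lie near the shift between scalings.

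Hexokinases commit glucose to the cell by phosphorylating it. HK2, an isoform that binds mitochondria and a classic HIF target, had 90.6, 71.7 and 78.8 CPM with GST and 162, 130.4 and 116 CPM with GST-PTR1. All GST-PTR1 libraries were higher, with a spread that was wider than in GST. Its mean went from 80.4 ± 9.51 to 136 ± 23.3 CPM (SD, n = 3 each), a 1.69-fold rise (log2 fold change 0.76, SE 0.14, edgeR adjusted p = 0.00311). With library totals the log2 fold change was 0.57. The HK2 gene (ENSG00000159399) is on chromosome 2 of GRCh37 from 75061108 to 75120486. HK1, the isoform of most tissues, was almost absent with 0, 2 and 1 counts under GST and 2, 8 and 4 counts under GST-PTR1. Over the scaled totals HK1 had 3.29 times as many counts with GST-PTR1, with an exact 95% interval of 0.917 to 17.8 that covers counting error only. In both treatments HK2 took 99.9% of the RPKM of HK1 and HK2 together.

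No other gene of the upper steps passed the test. GPI, which isomerises glucose 6-phosphate, had a log2 fold change of 0.07 (95% interval -0.16 to 0.29). Of the phosphofructokinases, which catalyse the main control step, PFKP was the most abundant at 49.5% of the summed RPKM with GST and 49.0% with GST-PTR1. The liver-type PFKL had a log2 fold change of 0.20, the platelet-type PFKP 0.11 and the muscle-type PFKM 0.06, each with an interval that spans 0. The direction of PFKM, PFKP and GPI turned with library totals. ALDOA, the main aldolase, had 1667 to 1772 CPM with GST and 1778 to 1995 CPM with GST-PTR1, at a log2 fold change of 0.17 that turned to -0.03 with library totals. ALDOC, the brain-type aldolase, took 5.03% of aldolase RPKM with GST and 4.26% with GST-PTR1, in overlapping ranges.

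In the lower, ATP-forming part of the pathway lay ENO1, the most abundant member at 842 RPKM with GST and 1043 RPKM with GST-PTR1. With GST, GAPDH (776 RPKM) and PKM (402 RPKM) also exceeded ALDOA of the upper steps (277 RPKM). PGK1 (179 RPKM), PGAM1 (134 RPKM), LDHA (144 RPKM) and LDHB (214 RPKM) lay between GPI (49.2 RPKM) and ALDOA. The enolase ENO1 had 3261, 3214 and 3518 CPM with GST and 4178, 3919 and 4286 CPM with GST-PTR1. The treatments did not overlap, yet its log2 fold change of 0.31 had an adjusted p of 0.0975. PGAM1, the phosphoglycerate mutase, had 354, 327 and 353 CPM against 436, 396 and 404 CPM, with a log2 fold change of 0.26 (adjusted p = 0.0981). LDHA, which favours lactate formation, had 905, 895 and 888 CPM against 1175, 1032 and 1037 CPM, with a log2 fold change of 0.27 (adjusted p = 0.107). DESeq2's test called ENO1, PGAM1 and LDHA higher, with adjusted p = 0.0119, 0.0405 and 0.0347. The triose-phosphate isomerase TPI1, the phosphoglycerate kinase PGK1, the pyruvate kinase PKM and GAPDH had log2 fold changes of 0.26, 0.27, 0.18 and 0.19 with no overlap between treatments in TMM-scaled CPM, none of them passed the test, and PKM and GAPDH turned just below 0 with library totals. LDHB, the subunit that favours pyruvate, had 548, 693 and 678 CPM against 671, 689.8 and 927 CPM, which overlapped. LDHA made up 40.4 ± 3.36% of lactate dehydrogenase RPKM with GST and 40.8 ± 5.43% with GST-PTR1 (SD, n = 3 each). Near-identical gene copies limit some of these values. In all, 64 GAPDH pseudogenes together held 34.4% as many counts as GAPDH itself, 4 TPI1 pseudogenes 33.4% and 6 LDHA pseudogenes 12.5%, and reads that map to several places were left out.

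ENO2, the neuronal enolase (ENSG00000111674, chromosome 12 of GRCh37 from 7022909 to 7032861), was the enzyme that fell. It had 9.56, 6.97 and 7.46 CPM with GST and 5.30, 4.47 and 4.14 CPM with GST-PTR1. All GST-PTR1 libraries were below the GST libraries, at a log2 fold change of -0.79 (SE 0.18, edgeR adjusted p = 0.00985). ENO2 is a minor enolase in these cells, with 0.218% of the RPKM of the 3 enolases with GST and 0.102% with GST-PTR1, again without overlap.

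**Figure D3:**
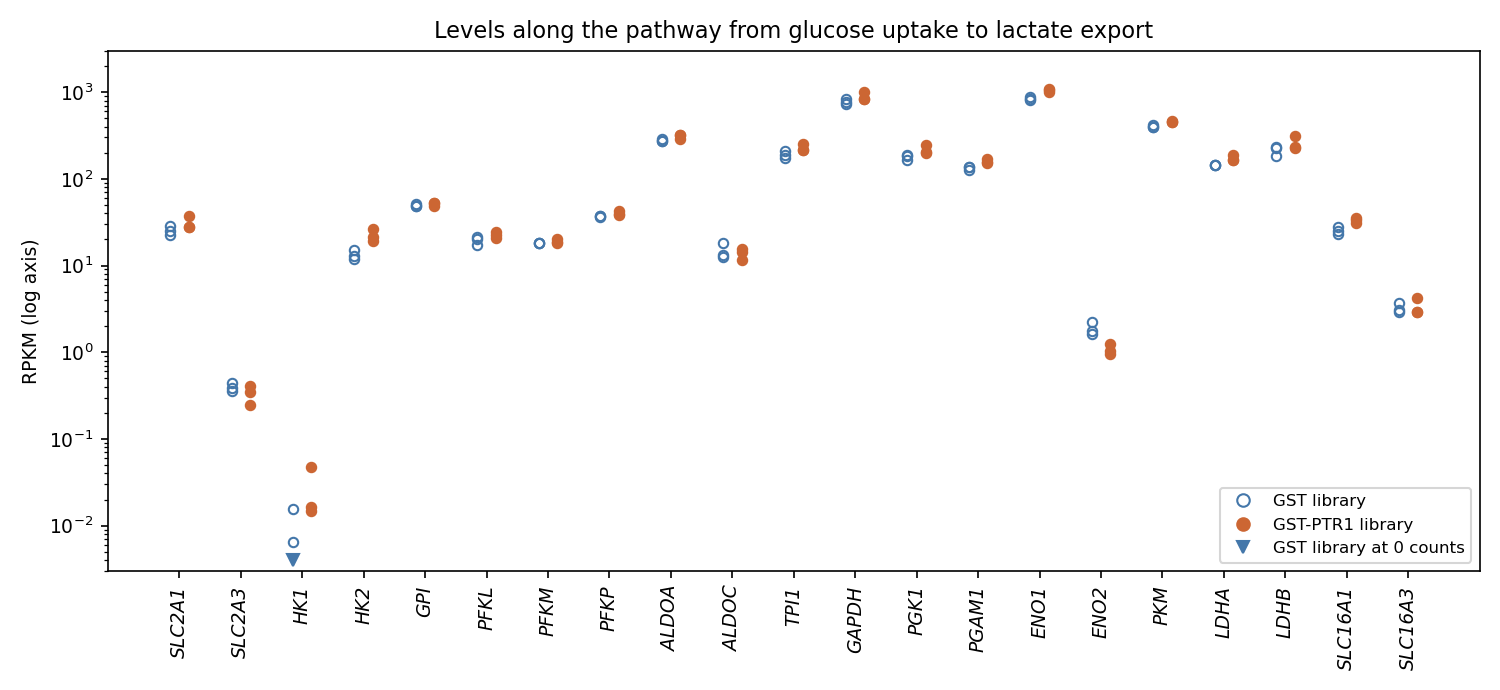
RPKM on a log axis (vertical) for the transporters and enzymes in the order of the pathway, with an open point for each GST library, a filled point for each GST-PTR1 library and a triangle for the library with 0 counts. ENO1 is highest at 842 and 1043 RPKM, HK1 is lowest with at most 8 counts in a library, and the treatments lie close together at nearly every step.

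Further genes of glycolysis and pyruvate use, from a list of 39, gave 23 tested genes, of which 5 rose (21.7%) and 2 fell (8.70%), against 9.15% and 11.4% of all genes. Their median log2 fold change was 0.24, against 0.01 for all genes, and 0.04 with library totals, where 1 was called higher and 4 lower. SLC2A4, the insulin-responsive glucose transporter, rose from 1.14, 0.711 and 0.722 CPM to 2.69, 2.53 and 2.00 CPM (log2 fold change 1.5, edgeR adjusted p = 0.00244). SLC2A4 was near absent, with 15 to 19 counts in a GST library and 60 to 79 in a GST-PTR1 library. PDK2, a pyruvate dehydrogenase kinase, fell from 23.5, 21.6 and 20.2 CPM to 14.9, 15.3 and 16.4 CPM (log2 fold change -0.48, adjusted p = 0.0141). PCK2, the mitochondrial phosphoenolpyruvate carboxykinase, had a log2 fold change of -0.55 (adjusted p = 0.0174). The other genes that rose, named after their values were seen, were BPGM, ENO3, TIGAR and PCK1. Of the 8 pentose phosphate genes, all tested, RPIA rose (log2 fold change 0.60, edgeR adjusted p = 0.0032) and none fell, with a median of -0.01. The called share was 12.5% higher and 0% lower, against 9.15% and 11.4% of all genes. With library totals 1 of the 8 was called higher and 1 lower, against 5.48% and 22.4% of all genes. Their median was then -0.20, against -0.19 for all genes. RPIA makes ribose 5-phosphate, a building block of nucleotides.

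Among the transporters the lactate carrier SLC16A1 (MCT1) rose, and the glucose carriers SLC2A1 (GLUT1) and SLC2A3 (GLUT3) and the lactate exporter SLC16A3 (MCT4) passed no test. SLC16A1 had 149, 178 and 162 CPM with GST and 200.3, 219 and 227 CPM with GST-PTR1. The treatments did not overlap, and the 1.32-fold rise (log2 fold change 0.40, SE 0.11) had an adjusted p of 0.0235 from edgeR. The call was lost without the GST library of lowest total (adjusted p = 0.0659) or highest total (0.0847), without the GST-PTR1 library of middle (0.0855) or highest total (0.0554), with library totals (0.174) and in the 4 libraries whose column number both treatments share, with that number as a replicate block (0.0634). The gene (ENSG00000155380) is on chromosome 1 of GRCh37 from 113454469 to 113499635. SLC16A1 made up 88.6% of the RPKM of both lactate carriers with GST and 90.9% with GST-PTR1. SLC2A1 had 119, 95.9 and 106 CPM against 155, 118 and 117 CPM, which overlapped at 118 and 117 against 119, with a log2 fold change of 0.28 (95% interval -0.02 to 0.58). It made up 52.3% of the RPKM of 5 glucose and fructose carriers, SLC2A4 not among them, with GST and 53.6% with GST-PTR1. SLC2A3 was near absent at 1.5 to 2.7 CPM, and SLC16A3 had a log2 fold change of 0.04 that turned to -0.15 with library totals.

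None of the 4 regulatory kinases passed the test. PFKFB3, which makes fructose 2,6-bisphosphate and so speeds phosphofructokinase, had 38.1, 25.1 and 26.5 CPM with GST and 52.0, 42.5 and 34.0 CPM with GST-PTR1. The treatments overlapped only through the GST library of lowest total. Its log2 fold change was 0.52 (edgeR adjusted p = 0.0733), and it was called without that library (0.72, adjusted p = 0.00807) or without the GST-PTR1 library of highest total (0.68, adjusted p = 0.0197). In all it was called higher under 8 of 16 alternatives, among them DESeq2's test (adjusted p = 0.0287) and edgeR's with the length (0.0278) or GC trend removed (0.0326), with a filter of 1 count (8.2e-04) and without the lowest-total library of both treatments (0.00453). PFKFB4, its relative with a stronger phosphatase role, had 5.95, 2.99 and 3.65 CPM against 13.0, 4.43 and 4.97 CPM. The GST-PTR1 library of lowest total stood apart, and without it the log2 fold change of PFKFB4 went from 0.83 (adjusted p = 0.163) to 0.19 (adjusted p = 0.635). PDK1 and PDK3, which inhibit pyruvate dehydrogenase and so keep pyruvate from the mitochondria, both had a log2 fold change of -0.04, with intervals of -0.36 to 0.28 and -0.33 to 0.26. PFKFB4 shares 4.7% of its exon bases with UCN2.

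Of the 11 HIF targets outside glycolysis NDRG1 fell, BNIP3 rose and 9 passed in neither direction. The called share was 9.09% in each direction, near the 9.15% higher and 11.4% lower of all genes. The median log2 fold change of the 11 was 0.20 with TMM factors and 0.00 with library totals, with 6 positive and 5 negative values under either scaling. Without the GST-PTR1 library of lowest total the median was 0.098, and without the lowest-total library of both treatments it was 0.092. In 3 of the 11 all GST-PTR1 values exceeded all GST values, against 19.2% of all genes, and in 1 they all lay below, against 21.2%.

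NDRG1, a stress- and differentiation-related gene that hypoxia induces strongly in many cells, had the largest decrease of the group. The GST libraries had 118, 77.9 and 81.3 CPM and the GST-PTR1 libraries 30.9, 27.7 and 25.1 CPM. Even the lowest GST library was far above every GST-PTR1 library. The mean went from 92.5 ± 22.5 to 27.9 ± 2.92 CPM (SD, n = 3 each), with a log2 fold change of -1.73 (SE 0.16, edgeR adjusted p = 2.98e-05). With library totals it was -1.93. NDRG1 (ENSG00000104419) is on chromosome 8 of GRCh37 from 134249414 to 134314265.

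BNIP3 and BNIP3L are outer mitochondrial membrane proteins that act as receptors for mitophagy. BNIP3 (ENSG00000176171, chromosome 10 of GRCh37 from 133781578 to 133795435) had 4.81, 5.78 and 4.94 CPM with GST and 8.94, 6.78 and 7.39 CPM with GST-PTR1, with no overlap. On the log2 scale the change was 0.57 (SE 0.17, edgeR adjusted p = 0.0335). The call was lost without the GST library of lowest (adjusted p = 0.0722) or highest total (0.113), without the GST-PTR1 library of lowest (0.0969) or highest total (0.0537), and with library totals (0.138). Its level is uncertain, since 42 BNIP3 pseudogenes together held 117% as many counts as the gene itself. BNIP3L had 35.8, 32.2 and 27.6 CPM against 31.3, 26.0 and 27.2 CPM, which overlapped, and a log2 fold change of -0.18.

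The prolyl hydroxylases EGLN1 and EGLN3 mark HIF alpha for destruction and are HIF targets themselves. EGLN1 (PHD2) had 31.7, 29.1 and 26.6 CPM with GST and 43.2, 34.8 and 30.7 CPM with GST-PTR1, a log2 fold change of 0.31 (edgeR adjusted p = 0.139). EGLN3 (PHD3) had 27.6, 22.1 and 20.7 CPM against 24.5, 17.3 and 13.4 CPM, with a log2 change of -0.35 (adjusted p = 0.236). For each gene the treatments overlapped, but their shares of the family did not. EGLN1 took 51.1 ± 1.76% of the RPKM of EGLN1, EGLN2 and EGLN3 with GST and 59.8 ± 1.66% with GST-PTR1, and EGLN3 took 40.4 ± 2.09% and 29.5 ± 3.16% (SD, n = 3 each). Without the GST-PTR1 library of lowest total EGLN3 was called lower (log2 fold change -0.61, adjusted p = 0.0291).

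The other HIF targets passed no test. ANKRD37, an ankyrin repeat protein, had 2.83, 2.18 and 2.41 CPM with GST and 4.18, 3.30 and 3.65 CPM with GST-PTR1, and its log2 fold change of 0.59 had an adjusted p of 0.0533. Without the GST library of lowest total ANKRD37 was called higher (0.68, adjusted p = 0.0467). P4HA1, a collagen prolyl hydroxylase subunit, had 31.6, 37.2 and 33.6 CPM against 41.5, 40.6 and 41.3 CPM (log2 fold change 0.27, adjusted p = 0.0976). In ANKRD37 and P4HA1 the treatments did not overlap, whereas the genes that follow overlapped. DDIT4 (REDD1), an inhibitor of mTORC1, had 112, 76.2 and 78.4 CPM against 172, 94.6 and 104 CPM. Its log2 fold change was 0.48 (adjusted p = 0.145), it was called without the GST library of lowest total (0.68, adjusted p = 0.0393), and it went down to 0.17 without the GST-PTR1 library of lowest total. VEGFA, the main growth factor of blood vessels, had 113, 73.5 and 81.9 CPM against 92.9, 84.0 and 68.8 CPM, a log2 fold change of -0.13 (95% interval -0.49 to 0.23). The carbonic anhydrase CA9, often used as a marker of hypoxia, was low at 5.61 to 9.56 CPM and had a log2 fold change of -0.20, and ADM, the vasodilator adrenomedullin, had 0.20.

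**Figure D4:**
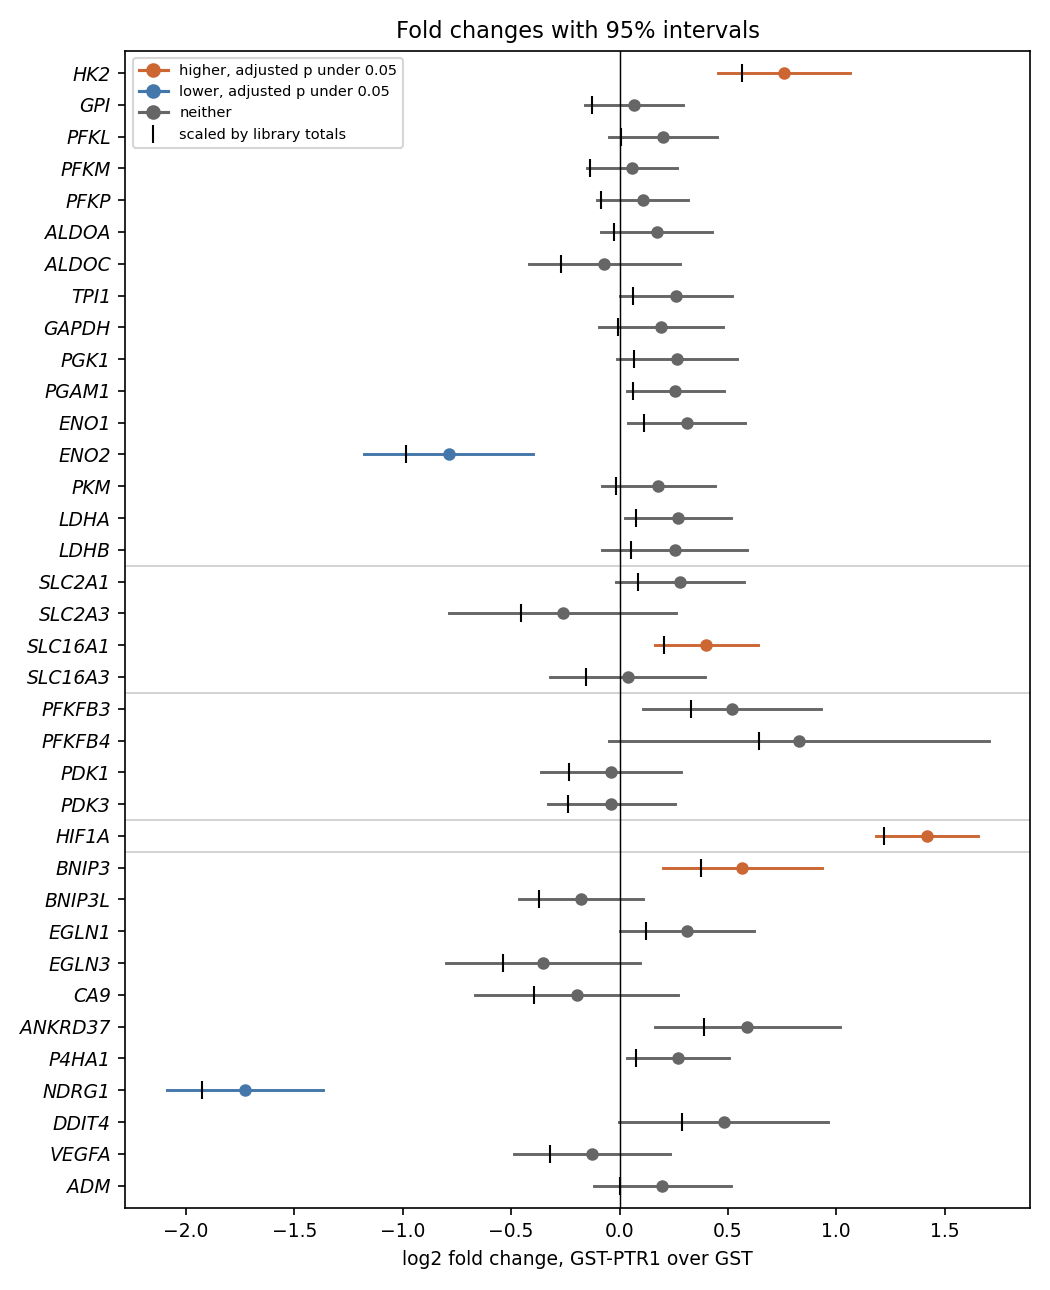
Log2 fold change of GST-PTR1 over GST (horizontal axis) with its 95% interval for the 36 tested genes, in the groups of the text from the glycolytic enzymes at the top to the HIF targets at the bottom, with a black tick at the value from library totals. HIF1A at 1.42 and NDRG1 at -1.73 stand apart, the 14 uncalled enzymes lie between -0.07 and 0.31, and the ticks are shifted to the left by about the same amount in every gene.

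Other HIF targets, from a list of 55, gave 43 tested genes with 6 higher and 6 lower, or 27.9% called against 20.6% of all genes (9.15% higher and 11.4% lower). Their median log2 fold change was 0.02, against 0.01 for all genes. With library totals 4 were called higher and 9 lower, against 5.48% and 22.4% of all genes. The median was then -0.17, against -0.19 for all genes. PAM, which amidates peptide hormones, rose from 60.2, 59.9 and 56.4 CPM to 106.5, 100.5 and 103 CPM (log2 fold change 0.81, edgeR adjusted p = 1.25e-04). HILPDA, a lipid droplet protein, rose from 11.2, 16.2 and 13.5 CPM to 53.8, 31.3 and 32.2 CPM (log2 fold change 1.51, adjusted p = 6.71e-04), and 13.2% of its exon bases are shared with another gene. BHLHE41, a clock-related repressor, had a log2 fold change of 0.73 (adjusted p = 0.00194). The 6 genes that fell, named after their values were seen, were HMOX1, KDELR3, EFNA3, ZNF395, NT5E and KDM3A. Their log2 fold changes were -0.996, -0.89, -0.83, -0.56, -0.52 and -0.42, with edgeR adjusted p from 0.00459 (EFNA3) to 0.0492 (ZNF395). EFNA3 and ZNF395 share 49.7% and 34.9% of their exon bases with other genes.

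Set side by side, the enzymes and the HIF targets each had 1 gene higher and 1 lower and a median of 0.20. The calls were 6.25% of the enzymes and 9.09% of the HIF targets each way, against 9.15% and 11.4% of all genes. Both medians depended on the scaling and were 0.00 with library totals. The median of the HIF targets also depended on the GST-PTR1 library of lowest total. Without that library the HIF targets had a median of 0.098 and the enzymes 0.19, and without the lowest-total library of both treatments the medians were 0.092 and 0.21. The values ran from -0.79 to 0.76 among the enzymes and from -1.73 to 0.59 among the HIF targets. Summed over the 17 enzymes the GST libraries had 14999, 15047 and 15768 CPM and the GST-PTR1 libraries 17786, 17145 and 18674 CPM, which did not overlap. As a share of all counts in a library, however, the enzymes took 1.64%, 1.58% and 1.68% with GST and 1.73%, 1.62% and 1.65% with GST-PTR1, which overlapped. Summed over the 11 HIF targets the libraries had 498, 374 and 374 CPM with GST and 472, 351 and 341 CPM with GST-PTR1, which overlapped as well.

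The library of lowest total stood apart within each treatment for the HIF targets. It was the highest of the 3 GST libraries in 8 of the 11 and the highest of the 3 GST-PTR1 libraries in all 11, and it was so in both treatments in 8 of 11 (72.7%). For the enzymes this held in both treatments for 6 of 16 (37.5%), and for all genes tested for 22.4%. The transporters and the regulatory kinases had 3 of 4 each, and HIF1A was highest in neither. Without these libraries, a check chosen after seeing the data, the fit of the other 4 libraries called 3638 of 17343 genes, 10.3% higher and 10.7% lower. In that fit HIF1A (log2 fold change 1.45), HK2 (0.71), SLC16A1 (0.39) and PFKFB3 (0.57) were called higher, and NDRG1 (-1.59), ENO2 (-0.75) and EGLN3 (-0.48) lower. BNIP3 was no longer called (0.41, edgeR adjusted p = 0.141), so no HIF target outside glycolysis rose and 2 fell. With the column number added as a replicate block 3318 genes were called, 9.24% higher and 9.89% lower, SLC16A1 (0.39, adjusted p = 0.0634) was lost as well, and the other 6 calls of members were the same. The medians were then 0.21 for the enzymes and 0.087 for the HIF targets.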

How the data were processed

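RNA from 6 samples was sequenced as strand-specific TruSeq mRNA libraries. The deposited table holds raw counts per gene, which the authors made with featureCounts 1.5.0-p1 on reverse-strand reads and the Ensembl release 75 annotation of GRCh37, with multi-mapping reads left out and nothing normalized. The aligner is not given in the sources used here. Columns were matched to treatments by name. The numbers in their names cannot be tied to a replicate, so libraries go by their total. No replicate pair agreed within sampling noise (chi-square per gene at least 8.37). Counts were fitted in R 4.3.3 with edgeR 4.0.16 (TMM factors, filterByExpr, glmQLFit, glmQLFTest, Benjamini-Hochberg adjustment over all genes tested, threshold 0.05), after tests on simulated data. CPM and RPKM used TMM-scaled totals and the exon length given in the table. Alternatives were DESeq2 size factors, library totals, DESeq2 1.42.0, limma voom 3.58.1, a filter of 1 count in any library or of 10 in every one, a 2-fold threshold and each library left out. Removing the trend with length or GC content, leaving out both lowest-total libraries, and the column number as a block in the other 4 were added after seeing the data. Named genes are all members, up to 3 genes of smallest adjusted p under 0.05 in each other list, and the cell type markers. BPGM, ENO3, TIGAR, PCK1 and the genes that fell in the list of other HIF targets were named after their values were seen. Members and lists were chosen with earlier results of these data known. Promoters came from RefSeq (GRCh38.p14), and only the 250 bases upstream of the start were searched.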

Additional observations from a re-analysis of the deposited data

How the results depend on the processing

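HIF1A, HK2, NDRG1 and ENO2 were called in the same direction under all 16 alternatives to the fit, which do not include the 2-fold threshold. At 2-fold only HIF1A and NDRG1 remained. SLC16A1 and BNIP3 were lost in at least 1, and 10 uncalled members were called in at least 1. In place of 4 members called higher there were 8 with DESeq2's test, 8 with a filter of 1 count, 8 with the length trend removed, 7 with the GC trend removed, 2 with library totals, 1 at 2-fold and 2 to 5 with a library left out (2 without the GST library of highest total, 5 without that of lowest total). In place of 2 lower there was 1 at 2-fold and 2 to 3 with a library left out. For the glycolytic enzymes, 1 higher became 4 with DESeq2's test, 3 with the GC trend and 2 with the length trend removed, and both directions were 0 at 2-fold. For the HIF targets, 1 higher became 3 with a filter of 1 count or the length trend removed, 2 with DESeq2's size factors, 0 with library totals, at 2-fold or without both lowest-total libraries, and 0 to 2 with a library left out. Their 1 lower became 2 without both lowest-total libraries and 1 to 2 with a library left out. Their median of 0.20 became 0.092 without both lowest-total libraries. The causes were not tested.

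The direction turned only among uncalled members. With library totals the log2 fold change became -0.13 for GPI, -0.14 for PFKM, -0.086 for PFKP, -0.025 for ALDOA, -0.0077 for GAPDH, -0.018 for PKM and -0.15 for SLC16A3. PDK1 became 0.075 with the length trend removed and ALDOC 0.0016 with the GC trend removed. Without both lowest-total libraries ALDOC became 0.019, SLC16A3 -0.051 and PDK3 0.014. With each library left out the values ran from -0.16 to 0.10 for ALDOC, -0.15 to 0.15 for SLC16A3, -0.18 to 0.094 for PDK1, -0.14 to 0.049 for PDK3, -0.33 to 0.054 for CA9 and -0.25 to 0.072 for VEGFA. A replicate block over all 6 libraries was not run, because the numbers in the column names cannot be tied to the samples' own replicates and only the numbers 4 and 5 occur in both treatments. In those 4 libraries same-numbered ones did not deviate together (r = -0.024 over 16926 genes). With the column number as a replicate block there, 3 members were higher and 3 lower, 1 and 1 among the enzymes and 0 and 2 among the HIF targets, and ALDOC became 0.011 and PDK3 0.013, with SLC16A3 at -0.051 as without the block. Depth limits HK1 most, which had too few counts for a test.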
